A study of Mus musculus with 12 samples.

Results

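The genes of the mitochondrial genome were taken from the gene table of the series by a single rule, that the chromosome entry of the row is MT. The rule returned 32 of the 15855 genes of the table, namely 2 ribosomal RNAs, 13 messenger RNAs and 17 transfer RNAs. The mouse annotation (GENCODE M21, GRCm38) lists 37 genes on this genome, and the 5 not among the rows are the transfer RNA genes mt-Tv, mt-Ts1, mt-Td, mt-Tk and mt-Tt. RNA was sequenced from EpCAM+ epithelial cells sorted from the whole small intestine of C57BL6/J mice at 24 h after surgery. In 7 mice the surgery was a sham procedure, and in 5 mice it was permanent middle cerebral artery occlusion (pMCAO), in which a filament blocks a main artery of the brain and is left in place. The labels number the samples as biological replicates within each group. The labels give no age or sex, and the study's methods name young adult male mice. No group carried a genetic change or a drug other than the surgical anaesthetics, ketamine and xylazine.

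Mitochondria keep a small circular genome of their own. Its ribosomal RNAs, mt-Rnr1 (12S) and mt-Rnr2 (16S), form the core of the mitochondrial ribosome, and its messengers encode core subunits of the respiratory chain and of the ATP synthase, which that ribosome makes. Both strands are transcribed as long precursors, most of whose messengers and ribosomal RNAs are set free by cutting out the transfer RNAs that lie between them. All proteins that copy, transcribe, cut and translate this genome, and most respiratory chain subunits, come from nuclear genes and are imported. Absorptive enterocytes of the small intestine are rich in mitochondria, and their nutrient uptake runs on ATP.

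The total count per sample lay between 7418730 and 31925579, and between 13386 and 15766 genes had at least 1 count. The 6 epithelial markers Epcam, Cdh1, Krt8, Krt18, Vil1 and Cdx2 were counted in every sample, with a summed level from 3142 to 6038 counts per 1000000 (CPM) in sham and from 3878 to 5449 CPM in pMCAO samples. The 4 enterocyte markers summed to between 6927 and 20371 CPM in sham and between 15005 and 24275 CPM in pMCAO samples. The 5 leukocyte markers Ptprc, Cd3e, Cd3g, Cd8a and Itgam summed to between 14.4 and 263 CPM in sham and between 29.9 and 211 CPM in pMCAO samples, and Cd3e and Cd3g were at 0 in 2 samples each. None of the 6 markers of stroma and muscle is a row of the table, and of the 2 endothelial markers only Pecam1 is, at no more than 6.38 CPM. In a bulk sample, fewer cells of a type and less RNA per cell cannot be told apart.

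The junction of the 16S ribosomal RNA and the first messenger shows how tightly the genome is packed. It lies on the plus strand at chrM:2656-2770, with the last 20 bases of mt-Rnr2, the whole of mt-Tl1 in capitals and the first 20 bases of mt-Nd1.
mt-Rnr2 end, mt-Tl1 and mt-Nd1 start: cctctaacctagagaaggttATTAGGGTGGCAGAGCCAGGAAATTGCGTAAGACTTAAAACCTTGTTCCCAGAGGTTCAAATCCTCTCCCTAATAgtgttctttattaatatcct
No base lies between the 3 genes. The transfer RNA genes are 59 to 75 bases long, shorter than the 100-base reads, so a read that covers one of them can also cover its neighbour.

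**Figure D1:**
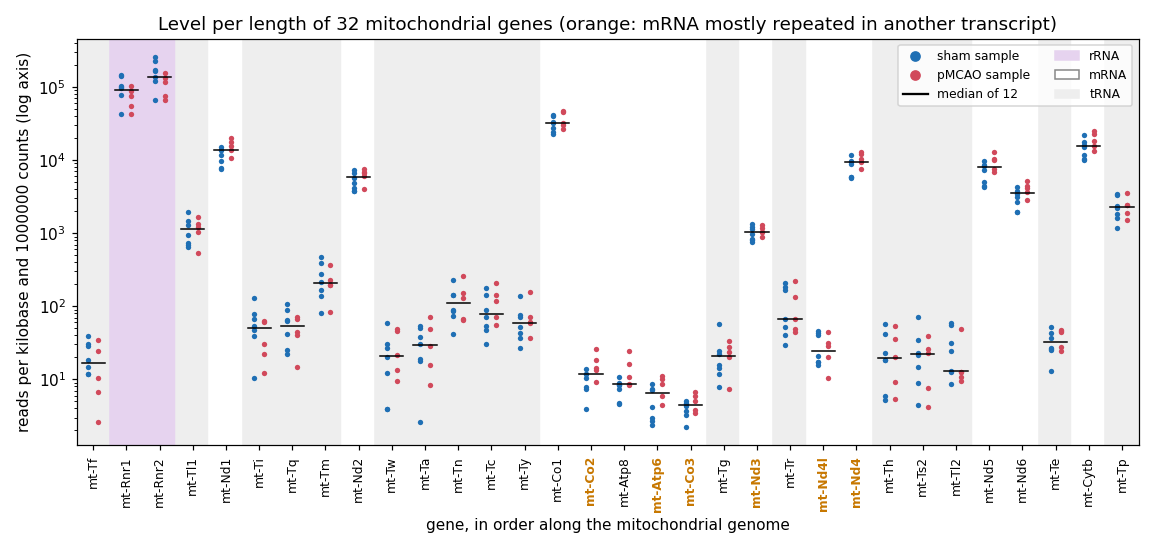
Level per length of the 32 genes in their order along the mitochondrial genome, in reads per kilobase and 1000000 counts on a log axis, with 1 point for each of the 7 sham and 5 pMCAO samples and a bar at the median of all 12. The ribosomal RNAs lie highest, at medians of 92691 and 136390, and mt-Co2, mt-Atp8, mt-Atp6, mt-Co3 and mt-Nd4l lie lowest among the messengers, at medians from 4.398 to 24.5, with their points from sham and pMCAO samples intermingled.

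Levels per gene length are given as reads per kilobase and 1000000 counts (RPKM), the count divided by the gene's length and the sample's total. The ribosomal RNAs were the most abundant members. The median RPKM over the 12 samples was 136390 for mt-Rnr2 (from 66202 to 255464) and 92691 for mt-Rnr1 (from 42906 to 147598). Among the messengers, mt-Co1, the catalytic subunit of complex IV, was highest at a median of 32509 RPKM (from 22830 to 47373). It was followed by mt-Cytb of complex III at 15809 RPKM (from 10121 to 24692) and mt-Nd1 of complex I at 13698 RPKM (from 7647 to 20128), whose ranges overlap widely. The other complex I messengers followed in the order mt-Nd4 (9405), mt-Nd5 (8052), mt-Nd2 (5887), mt-Nd6 (3563) and mt-Nd3 (1037), each figure a median RPKM. The ranges of mt-Nd4, mt-Nd5 and mt-Nd2 overlapped, while that of mt-Nd3, from 760 to 1319 RPKM, lay below the lowest value of mt-Nd6, 1930 RPKM.

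The other 5 messengers stood far below these. mt-Nd4l of complex I had a median of 24.5 RPKM, mt-Co2 and mt-Co3 of complex IV had 11.8 and 4.398, and mt-Atp8 and mt-Atp6 of complex V, the ATP synthase, had 8.58 and 6.49. The lowest of the 8 well counted messengers was 42.3-fold higher in median RPKM than the highest of these 5. The 8 held at least 1000 counts in every sample, whereas the counts of the 5 lay between 11 and 418, and together they made up 0.0221% of all messenger counts of the mitochondrial genome. As an example, the count of mt-Co2 was 127, 38, 20, 56, 141, 252 and 61 in sham samples 1 to 7, and 278, 179, 292, 109 and 304 in pMCAO samples 1 to 5. The gene mt-Nd3, which lies between mt-Co3 and mt-Nd4l, had 1962 to 14484 counts in the same libraries.

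These 5 genes lie in a single stretch of the mitochondrial genome that has a near-identical copy in the nuclear genome. On chromosome 1, 7 annotated pseudogenes between chr1:24611535-24616197, all on the minus strand, repeat the stretch chrM:6390-11042 in the same gene order. They are Gm29216, Gm28661, Gm10925, Gm28437, Gm28438, Gm10222 and Gm28439, copies of parts of mt-Co1, mt-Co2, mt-Atp6, mt-Co3, mt-Nd3, mt-Nd4l and mt-Nd4. In a search of each transcript against all others, the copies of mt-Co2, mt-Atp6, mt-Co3 and mt-Nd4l were 100% identical over 681, 678, 783 and 294 aligned bases. Of all 100-base windows of a gene, the share found letter for letter in another annotated transcript was 99.5% for mt-Co2, 99.5% for mt-Atp6, 99.9% for mt-Co3 and 98.5% for mt-Nd4l. It was 97.6% for mt-Nd3, 60.8% for mt-Nd4, 30.8% for mt-Co1 and 3.19% for mt-Nd2. No such window was found for mt-Atp8, mt-Nd1, mt-Nd5, mt-Nd6, mt-Cytb or either ribosomal RNA.

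How completely the copy matches is seen where the reading frames of the ATP synthase genes overlap. The first 63 bases of mt-Atp6 (chrM:7927-7989, plus strand), of which the 43 in capitals also belong to mt-Atp8, and the first 63 bases of Gm10925 (chr1:24614589-24614651, minus strand) read as follows.
mt-Atp6: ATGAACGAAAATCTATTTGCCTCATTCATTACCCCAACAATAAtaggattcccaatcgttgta
Gm10925: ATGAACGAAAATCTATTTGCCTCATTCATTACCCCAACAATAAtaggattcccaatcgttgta
The only mismatch between mt-Nd3 and its copy is at the third base. The first 33 bases of mt-Nd3 (chrM:9459-9491, plus strand) and of Gm28438 (chr1:24613087-24613119, minus strand) are given with that base in capitals.
mt-Nd3: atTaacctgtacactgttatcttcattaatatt
Gm28438: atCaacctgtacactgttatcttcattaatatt
Written with the mitochondrial base first, counted from the start of the gene, this substitution is T3C. Between mt-Co1 and Gm29216 the only mismatch is A1066T. The sequence of mt-Atp8 outside the overlap lies in the same stretch but in no annotated transcript of the copy, so its identity was not compared here.

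The copies themselves were counted too. Summed over the 12 samples, Gm28661 held 4897 counts against 1857 for mt-Co2, Gm10925 3954 against 949 for mt-Atp6, and Gm28437 1903 against 756 for mt-Co3. Each of these copies thus held more counts than its mitochondrial gene, by 2.64-fold, 4.17-fold and 2.52-fold. For mt-Nd4l the order was the other way, with 1709 counts against 860 for Gm10222, and Gm28438 held 922 counts against 76362 for mt-Nd3. The 7 copies together held 17763 counts, or 0.0688% of the mitochondrial messenger counts. Of the 5 transfer RNA genes that are not rows of the table, mt-Ts1, mt-Td and mt-Tk lie wholly inside the same stretch. How reads that match several places were counted is not given in the sources used here, and the part of this in the low values was not tested. The levels of mt-Co2, mt-Co3, mt-Atp6, mt-Atp8 and mt-Nd4l are therefore uncertain above and in all that follows. The same holds for mt-Nd3, with 97.6% of its windows repeated, and in part for mt-Nd4 (60.8%) and mt-Co1 (30.8%), although these 3 were well counted.

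The comparison of sham and pMCAO samples asks whether the output of the mitochondrial genome in the gut epithelium differs after stroke. All members together held between 25.8% and 62.02% of the counts in sham samples (median 48.5%) and between 24.2% and 46.3% in pMCAO samples (median 42.4%). The mean was 46.3% ± 11.97 (SD, n = 7) in sham samples and 37.9% ± 9.06 (SD, n = 5) in pMCAO samples, a difference of -8.46 percentage points (interval -22.2 to 5.91) that did not pass the two-sided exact permutation test of the group labels (p = 0.215, adjusted p = 0.358). Within the 3 blocks of consecutive library numbers that hold both groups it was -9.81, -16.3 and 17.04 percentage points. Adjusted for the blocks it was -5.08 (exact permutation within blocks, p = 0.431), and it was -5.03 without pMCAO sample 2. The adjusted p-values here are Benjamini-Hochberg values over the 10 shares and ratios compared. No share in a single sample had a 95% Wilson interval wider than 0.0717 percentage points, and these intervals cover counting error alone, because no molecular identifiers told copies of a molecule apart.

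Ribosomal RNA made up most of these counts and most of their spread. It took 37.0%, 49.5%, 54.5%, 35.2%, 26.6%, 14.7% and 31.4% of the counts in sham samples 1 to 7. In pMCAO samples 1 to 5 it took 34.8%, 14.6%, 17.2%, 29.7% and 26.1%. The groups overlapped, with the low values of pMCAO samples 2 and 3 next to that of sham sample 6, and only the sham samples 1 to 4 lay above all pMCAO samples. The means were 35.6% ± 13.5 (SD, n = 7) and 24.5% ± 8.47 (SD, n = 5). The difference of -11.1 percentage points had an interval from -25.9 to 4.41 and did not pass the test (exact permutation p = 0.136, adjusted p = 0.313). Over the single samples left out in turn, the unadjusted exact permutation p ran from 0.0433 to 0.267. The lowest was without sham sample 6, where the difference was -14.6 percentage points.

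**Figure D2:**
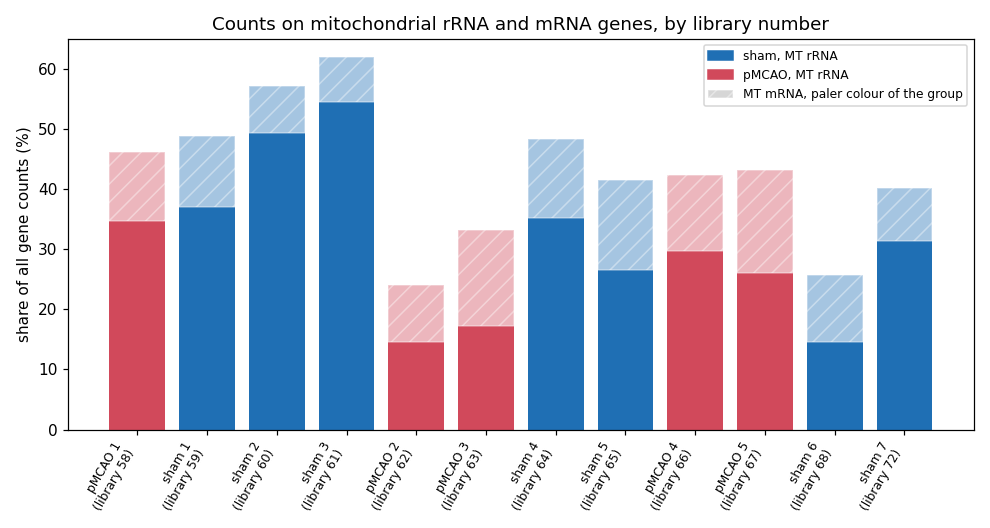
Share of all gene counts on mitochondrial ribosomal RNA (solid) and messenger RNA (hatched, paler), in percent, for the 12 samples in the order of their library number. Ribosomal RNA ranges from 14.6% to 54.5%, and sham samples 2 and 3, libraries 60 and 61, stand highest.

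The ribosomal RNA share differed between blocks of library numbers. The titles number the libraries from 58 to 68 without a gap, and 72. Earlier work on these data divided the numbers into 4 blocks (58 to 61, 62 to 65, 66 to 68, and 72), chosen to match the authors' deposited fold changes, so the blocks are not a label of the samples. The 4 libraries of the first block, sham samples 1 to 3 and pMCAO sample 1, had a ribosomal RNA share of 43.9% ± 9.57 (SD, n = 4), and the 8 later libraries had 24.4% ± 7.98 (SD, n = 8). By block, the later means were 23.4%, 23.5% and 31.4%, the last from 1 library. In the first block sham samples 2 and 3 stood out, while sham sample 1 (37.0%) and pMCAO sample 1 (34.8%) were near sham sample 4 (35.2%). Within the first, the second and the third block, pMCAO minus sham was -12.2, -15.0 and 13.2 percentage points, where the third holds only sham sample 6 as its control and the fourth only sham sample 7. Adjusted for the blocks, the difference was -6.35 percentage points (exact permutation within blocks, p = 0.306). The sign thus turned in the third block, and 3 of the 4 libraries of the block with the highest mean share are sham samples.

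Messenger RNA of the mitochondrial genome took a smaller and steadier share. It was 11.98%, 7.76%, 7.49%, 13.3%, 14.9%, 11.1% and 8.80% of the counts in sham samples 1 to 7 and 11.5%, 9.58%, 16.1%, 12.7% and 17.1% in pMCAO samples 1 to 5. The highest 2 values belonged to pMCAO samples 5 and 3 and the lowest 2 to sham samples 3 and 2, with the rest interleaved. The means of 10.8% ± 2.86 (SD, n = 7) and 13.4% ± 3.16 (SD, n = 5) differed by 2.63 percentage points (interval -1.37 to 6.64, exact permutation p = 0.157, adjusted p = 0.313). Within the 3 blocks that hold both groups, the difference was 2.41, -1.26 and 3.80, and 1.28 when adjusted for them (exact permutation within blocks, p = 0.5). Taken as a share of the counts other than mitochondrial ribosomal RNA, messenger RNA was 16.8% ± 3.26 (SD, n = 7) in sham samples and 17.9% ± 4.33 (SD, n = 5) in pMCAO samples, a difference of 1.11 percentage points (interval -3.78 to 5.83, exact permutation p = 0.614). Across all samples the ribosomal RNA share varied 3.74-fold and the messenger share 2.29-fold.

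Of the 10 shares and ratios, the balance of messenger to ribosomal RNA had the smallest p without library blocks, while with blocks that of mt-Rnr2 to mt-Rnr1 did. On the log2 scale the ratio of summed messenger counts to summed ribosomal counts was -1.63, -2.67, -2.86, -1.41, -0.83, -0.40 and -1.84 in sham samples 1 to 7 and -1.60, -0.61, -0.092, -1.23 and -0.61 in pMCAO samples 1 to 5. Ribosomal RNA exceeded messenger RNA in every sample. The ratio was closest to even in pMCAO sample 3 and next in sham sample 6, so the groups overlapped. The mean was -1.66 ± 0.90 (SD, n = 7) in sham samples and -0.83 ± 0.59 (SD, n = 5) in pMCAO samples, a log2 difference of 0.84 with an interval from -0.20 to 1.87 (exact permutation p = 0.0985, adjusted p = 0.313). It was 0.79, 0.77 and -0.52 within the 3 blocks and 0.42 when adjusted for them (exact permutation p = 0.264). Leaving out sham sample 6 gave 1.05 with an unadjusted exact permutation p of 0.0325, the lowest over single samples left out, where p reached 0.212. The ratio was -2.19 ± 0.67 (SD, n = 4) in the first block and -0.88 ± 0.58 (SD, n = 8) in the later libraries.

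Between samples, messenger and ribosomal RNA of the mitochondrial genome showed no relation that passed the test. Both were expressed per 1000000 nuclear counts for this, and over the 12 samples Pearson's r was 0.31 (permutation p = 0.321, adjusted p = 0.428) and Spearman's rho 0.098 (permutation p = 0.767). Without sham sample 3 and pMCAO sample 2, the samples farthest from the median, r was 0.13, and within the 8 later libraries it was 0.58 (exact permutation p = 0.137). A further 3 relations were computed after the values had been seen, and adjusted values are over all 4.

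Per 1000000 nuclear counts, mitochondrial ribosomal RNA rose with cytosolic ribosomal RNA. The row Rn18s-rs5, which carries the name of the 18S ribosomal RNA of the cytosolic ribosome, ranged from 2180 to 54469 counts per 1000000 nuclear counts. Its r with mitochondrial ribosomal RNA was 0.90 (permutation p = 3e-05, adjusted p = 0.00012) and its rho 0.94 (permutation p = 4e-05, adjusted p = 0.00016), n = 12. The relation held at r = 0.81 without sham samples 2 and 3 and at r = 0.81 in the 8 later libraries (exact permutation p = 0.017). With mitochondrial messenger RNA the same row had an r of -0.017 (permutation p = 0.959). All of these values share the nuclear count as their denominator, which varied 7.57-fold over the 12 samples. Counts themselves varied 2.30-fold for mitochondrial ribosomal RNA, 4.51-fold for the 18S row and 9.27-fold for mitochondrial messengers. The positive r with 18S is thus partly built in, and its p cannot separate that from a relation of the amounts. Nor can the contrast with the messengers be read apart from the denominator. The share of mitochondrial ribosomal RNA was also lower in libraries with more counts, with an r of -0.88 against the log2 total count (permutation p = 0.00021, adjusted p = 0.00042). It was -0.81 without sham samples 2 and 3, and -0.92 in the 8 later libraries (exact permutation p = 0.00347). The total count is the denominator of this share, so a negative r is partly built in and its p cannot separate that from depth. Ribosomal counts varied 2.30-fold over the 12 samples, and counts outside them 7.83-fold. The labels state that ribosomal RNA was removed by an RNA cleavage step before sequencing. The part of that step and of depth in the ribosomal share was not tested.

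**Figure D3:**
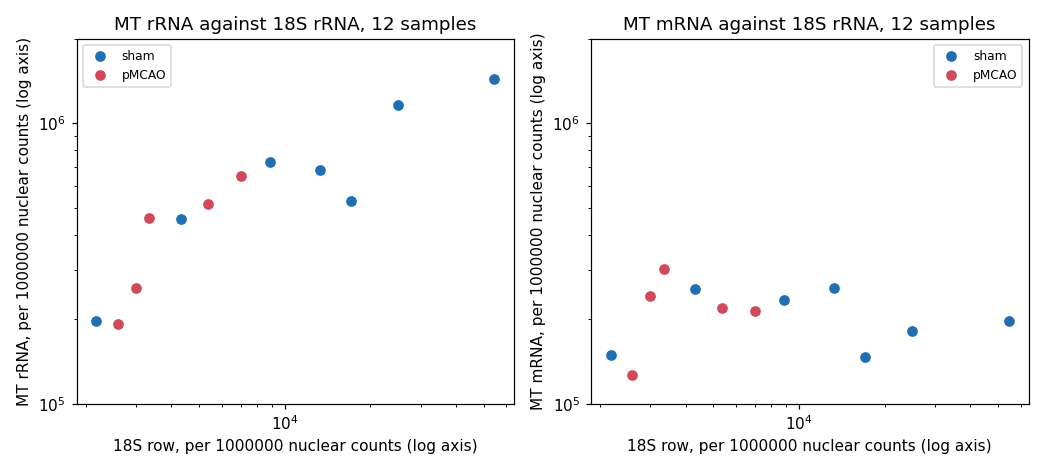
Counts per 1000000 nuclear counts on mitochondrial ribosomal RNA (left) and mitochondrial messenger RNA (right) against the row of the 18S ribosomal RNA, all on log axes, with 1 point per sample (7 sham, 5 pMCAO). On the left the points climb with 18S (r = 0.90), and on the right they do not (r = -0.017). Both axes are divided by the same nuclear count, so the climb on the left is partly built in.

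The 2 ribosomal RNAs kept a narrow ratio to each other. The log2 ratio of mt-Rnr2 to mt-Rnr1 counts lay between 1.21 and 1.52 in sham samples and between 1.198 and 1.39 in pMCAO samples. The means were 1.40 ± 0.11 (SD, n = 7) and 1.32 ± 0.072 (SD, n = 5), which differed by -0.086 (interval -0.21 to 0.038, exact permutation p = 0.155, adjusted p = 0.313). Within the blocks the difference was -0.14, -0.16 and 0.011, and -0.10 when adjusted for them (exact permutation within blocks, p = 0.0694). Without sham sample 7, the lowest of the sham group and alone in its block, it was -0.12 with an unadjusted exact permutation p of 0.0303. That p was the lowest over the single samples left out in turn, and the highest was 0.345.

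Gene by gene, the groups were compared by limma-voom on TMM-scaled counts, in which a gene was called if its adjusted p did not exceed 0.05 and its log2 fold change was 1 or more in size. Of the 14462 genes tested, 0 were called (0%), and so 0 of the 32 members, all of which passed the filter on low counts. At an unadjusted p under 0.05 there were 1219 genes (8.43% of those tested) and 0 members. By edgeR's quasi-likelihood test, 0 genes were called as well, with 930 at an unadjusted p under 0.05 and 0 members among them. DESeq2 called 68 genes and 0 members, with 1153 genes at an unadjusted p under 0.05 and 1 member among them. With the library blocks as a covariate, limma-voom called 47 genes (0.325%) and 0 members, and 1 member had an unadjusted p under 0.05, where 12.7% of all genes did and 6.17% were lower in pMCAO samples. It was mt-Ti, the isoleucine transfer RNA, at a log2 fold change of -1.18 with blocks, named after its value was seen. In TMM-scaled CPM the sham and pMCAO samples overlapped for all 32 members, while 0.505% of all genes had groups that did not overlap.

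The ribosomal RNAs had the largest fitted differences among the members with at least 1000 counts in every sample. mt-Rnr1 was at 28435 to 252318 CPM in sham (median 88872) and 26938 to 130860 CPM in pMCAO samples (median 66147), with a log2 fold change at -0.81 (SE 0.51) and a limma-voom adjusted p of 0.667. For mt-Rnr2 the values were 71914 to 723439 CPM (median 252464) and 68852 to 329340 CPM (median 173241), with a log2 fold change at -0.89 (SE 0.54) and a limma-voom adjusted p of 0.653. With library blocks the fold changes were -0.38 (SE 0.32) and -0.47 (SE 0.34).

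The 8 well counted messengers stayed close to 0, with a median log2 fold change of 0.060, the same to this precision as the median of all genes tested. They ran from -0.20 (SE 0.25) for mt-Nd3 to 0.22 (SE 0.30) for mt-Nd5, both complex I genes, with limma-voom adjusted p of at least 0.849. The complex IV gene mt-Co1 lay at 34221 to 65537 CPM in sham (median 60603) and 27234 to 65398 CPM in pMCAO samples (median 53883), a log2 fold change of -0.13 (SE 0.29). For mt-Cytb, the only complex III gene of this genome, the ranges were 10999 to 25359 CPM (median 19480) and 9916 to 25955 CPM (median 18973), a log2 fold change of 0.051 (SE 0.29). The 5 low messengers ranged from -0.46 (SE 0.49) for mt-Nd4l to 0.34 (SE 0.50) for mt-Atp8.

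Scaling by total counts moved the median log2 fold change of all genes to 0.35, and changes are best read against that value. Relative to it, mt-Rnr1 and mt-Rnr2 were at -0.79 and -0.88, and the 8 messengers lay between -0.23 (mt-Nd3) and 0.17 (mt-Nd5), in the same order at both ends as with TMM. On the unshifted values mt-Co1, mt-Nd2, mt-Nd3, mt-Co3, mt-Tp and mt-Tl1 turned from slightly lower to slightly higher in pMCAO samples, while both ribosomal RNAs remained lower, at -0.44 and -0.53.

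**Figure D4:**
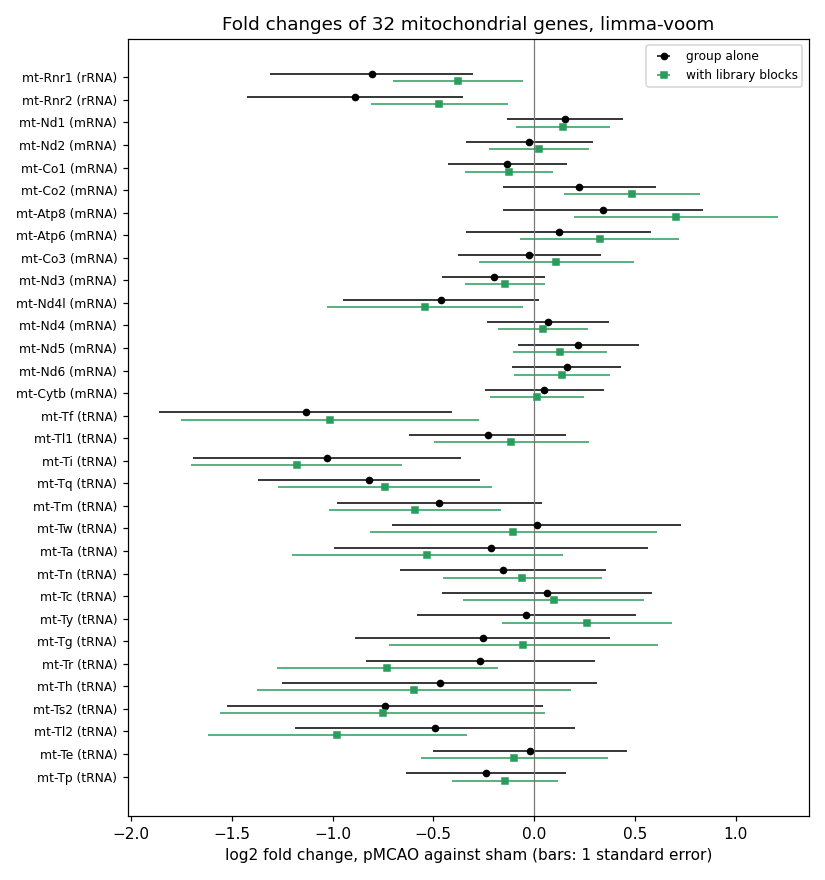
Log2 fold changes of pMCAO against sham for the 32 members by limma-voom, with the group alone (black circles) and with the library blocks (green squares), and bars of 1 standard error. The ribosomal RNAs move from -0.81 and -0.89 to -0.38 and -0.47 when the blocks enter, and the transfer RNAs carry the widest bars.

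The 8 well counted messengers varied less against each other than in level. Each of the 8 well counted messengers was expressed as log2 of its count over the geometric mean of the 8 in the same sample, which takes out library size and the total messenger share. The SD of this value over the 12 samples was 0.065 for mt-Cytb, 0.078 for mt-Nd1, 0.077 for mt-Nd4 and 0.17 for mt-Nd3, whereas the SD of their log2 CPM was 0.48, 0.48, 0.50 and 0.46. For mt-Nd5, mt-Co1, mt-Nd2 and mt-Nd6 it was 0.14, 0.13, 0.13 and 0.12, against 0.50, 0.44, 0.56 and 0.48 in log2 CPM. Centring on the mean of the same 8 genes lowers this spread in part by construction. By count, mt-Co1 made up 45.8% ± 2.11 (SD, n = 7) of the messenger counts in sham and 42.1% ± 2.27 (SD, n = 5) in pMCAO samples, and mt-Cytb 15.5% ± 0.608 (SD, n = 7) and 16.05% ± 0.404 (SD, n = 5).

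Within the pool, mt-Nd1 and mt-Nd5 stood higher and mt-Nd3 and mt-Co1 lower in most pMCAO samples. mt-Nd1 was at 0.76, 0.64, 0.68, 0.75, 0.66, 0.72 and 0.81 in sham samples 1 to 7 and 0.80, 0.79, 0.82, 0.87 and 0.88 in pMCAO samples 1 to 5, all on the log2 scale relative to the 8. Of the 5 pMCAO values, 3 lay above the highest sham value, and the groups overlapped only through sham sample 7. The group means were 0.72 ± 0.060 (SD, n = 7) and 0.83 ± 0.043 (SD, n = 5), and pMCAO minus sham was 0.099, 0.098 and 0.16 within the blocks. For mt-Nd5, 4 of 5 pMCAO samples lay above all sham samples, with means of 0.88 ± 0.11 (SD, n = 7) and 1.06 ± 0.11 (SD, n = 5) and within-block differences of 0.056, 0.080 and 0.18.

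mt-Nd3 was at -4.30, -4.04, -4.11, -4.23, -4.33, -4.32 and -4.24 in sham samples 1 to 7 and -4.40, -4.28, -4.40, -4.49 and -4.69 in pMCAO samples 1 to 5. In 4 of 5 pMCAO samples it lay below all sham samples, and only pMCAO sample 2 was inside their range. The within-block differences were -0.25, -0.057 and -0.27. For mt-Co1 the means were 2.90 ± 0.10 (SD, n = 7) and 2.75 ± 0.13 (SD, n = 5), with within-block differences of -0.26, -0.032 and -0.19. Only 2 of 5 pMCAO samples lay below all sham samples for mt-Co1. The difference of mt-Nd6 was 0.11, close to that of mt-Nd1, with within-block differences of 0.15, 0.045 and 0.17. For mt-Nd6, 1 of 5 pMCAO samples lay above all sham samples. The differences of mt-Nd4, mt-Nd2 and mt-Cytb, at 0.031, -0.068 and 0.018, were smaller than the SD of either group. mt-Nd3 and mt-Co1 are, with mt-Nd4, the members of the 8 with the most sequence in the chromosome 1 copy. These values were picked out after the data were seen, are not independent of each other since a rise in one lowers the rest, and were not tested.

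**Figure D5:**
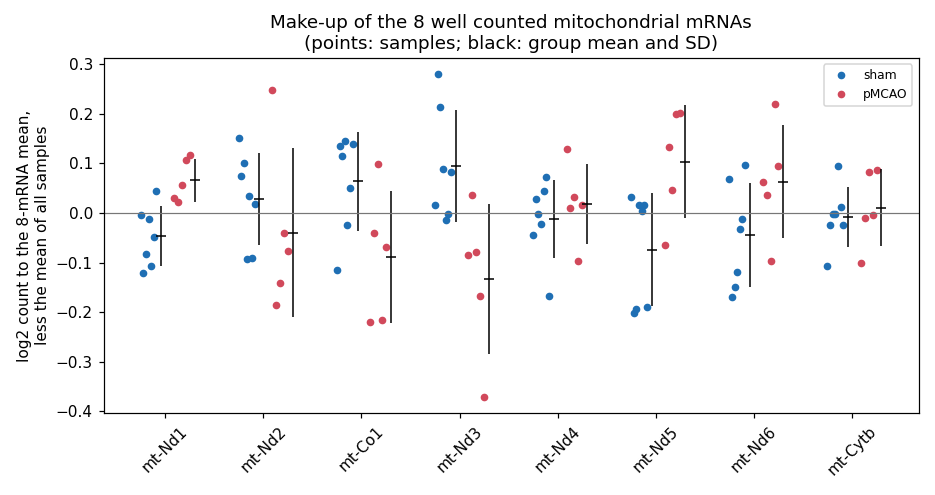
Log2 count of each of the 8 well counted messengers over the geometric mean of the 8, less the mean over all 12 samples, in genome order, with points for samples and black bars for the group mean and SD (7 sham, 5 pMCAO). mt-Nd1 and mt-Nd5 sit higher and mt-Nd3 and mt-Co1 lower in most pMCAO samples, and the groups overlap in every gene.

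mt-Nd6 is the only messenger encoded on the minus strand. Its count against that of the other 12 messengers, on the log2 scale, lay between -6.23 and -5.90 in sham and between -6.19 and -5.74 in pMCAO samples. The means of -6.09 ± 0.13 (SD, n = 7) and -5.95 ± 0.16 (SD, n = 5) differed by 0.14 (interval -0.049 to 0.32, exact permutation p = 0.129, adjusted p = 0.313). Leaving out each sample in turn gave an unadjusted exact permutation p from 0.0333 to 0.288. The lowest was without pMCAO sample 3, where the difference was 0.20. Within the blocks it was 0.23, 0.047 and 0.22, and 0.15 when adjusted for them (exact permutation within blocks, p = 0.125). Whether the counting used strand is not given in the sources used here, so reads of mt-Nd6 and of the precursor on the other strand cannot be told apart.

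The transfer RNAs contributed few counts. They took 0.0173% to 0.0505% of the counts in sham and 0.0168% to 0.0405% in pMCAO samples, with means of 0.0301% ± 0.0123 (SD, n = 7) and 0.0309% ± 0.00946 (SD, n = 5), a difference that did not pass the test (exact permutation p = 0.899, interval of the difference -0.0133 to 0.0157 percentage points). mt-Tp, the proline transfer RNA on the minus strand at chrM:15356-15422, and mt-Tl1, the leucine transfer RNA printed above, held 50.7% and 28.1% of them. The count of mt-Tp was 3663, 1119, 811, 1230, 3831, 3321 and 900 in sham samples 1 to 7 and 3673, 2872, 5218, 1382 and 3918 in pMCAO samples 1 to 5. Its log2 fold change was -0.24 (SE 0.40, limma-voom adjusted p = 0.885), and that of mt-Tl1 was -0.23 (SE 0.39, adjusted p = 0.889).

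The other 15 transfer RNAs had between 2 and 798 counts in a sample. Of all 17, 15 had a log2 fold change below 0, with a median of -0.26, where 44.8% of all genes tested were below 0 with a median of 0.060. The 10 on the plus strand had a median of -0.47 and the 7 on the minus strand one of -0.15. With library blocks, 15 of 17 were again below 0, against 48.7% of all genes, and with total-count scaling 8 of 17 were, at a median of 0.024 against 0.35 for all genes. Not 1 of the 17 had an unadjusted p under 0.05 without blocks, where 3.77% of all genes did in the lower direction. As neighbours cut from shared precursors, the genes of a strand are not independent, and this count was not tested. The log2 ratio of transfer RNA to messenger counts was -8.54 ± 0.37 (SD, n = 7) in sham samples and -8.79 ± 0.42 (SD, n = 5) in pMCAO samples, a difference of -0.25 (interval -0.77 to 0.26, exact permutation p = 0.293). It was -0.14 without sham sample 1, -0.41 without pMCAO sample 1 and -0.14 when adjusted for library blocks (exact permutation within blocks, p = 0.431).

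The nuclear genes that work with this genome were read from the same fit. Across the lists for DNA upkeep, transcription, RNA cleavage, messenger stability, ribosome assembly, translation, biogenesis, the mitochondrial ribosome and the respiratory chain, 225 genes were tested and 0 were called. The nuclear subunits of the respiratory chain and ATP synthase (70 of 70 tested) had a median log2 fold change of 0.41, and 9 of them (12.9%) were higher in pMCAO samples at an unadjusted p under 0.05 and 0 lower, where 4.66% of all genes were higher at that level. With library blocks 17 of the 70 (24.3%) were higher at that level, against 6.58% of all genes. The blocks were chosen to match the authors' deposited fold changes, so this count is not independent of their comparison. The 70 genes together held 0.118%, 0.104% and 0.0904% of the counts in sham samples 1 to 3. In the other samples they held 0.212% to 0.447%. Whether the subunits vary independently was not examined, and these counts of genes were not tested. The lowest adjusted p in the list was 0.38 without blocks and 0.177 with them. The 74 tested proteins of the mitochondrial ribosome had a median of 0.20, with 5 higher at that level and 0 lower.

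Of the genes of these lists, Ndufa6, a subunit of complex I, had the smallest unadjusted p. Its level was 14.96 to 32.4 CPM in sham (median 26.6) and 31.4 to 49.6 CPM in pMCAO samples, and the groups overlapped only between sham sample 6 and pMCAO sample 3. The log2 fold change was 0.71 (SE 0.22, limma-voom adjusted p = 0.38), and within the blocks the log2 difference was 1.56, 0.28 and 0.54. Uqcrfs1, the iron-sulphur subunit of complex III, was at 0.53 (SE 0.16, adjusted p = 0.38). The ribosomal proteins Mrpl20, Mrpl12 and Mrpl19 were at 0.82, 0.90 and 1.44, with adjusted p of 0.426, 0.426 and 0.451. Mrpl19 was scarce, at 0.207 to 3.35 CPM in sham and 1.68 to 4.02 CPM in pMCAO samples. Its lowest value, in sham sample 2, was near the floor of 3 counts, and with library blocks its log2 fold change was 0.92. These 5 were named because their p was the smallest, and none passed the adjustment in this fit.

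The named factors that act on the mitochondrial genome, its RNA or its biogenesis did not pass the test. Tfam, which packages the genome and starts transcription, measured 6.41 ± 4.49 CPM in the sham group (SD, n = 7) and 6.79 ± 1.40 CPM in the pMCAO group (SD, n = 5), with a log2 fold change at 0.36 (SE 0.55). The RNA polymerase Polrmt and its partners Tfb2m and Tefm were at 0.33, 0.29 and -0.16. Lrpprc and Slirp, which form a complex that stabilises the messengers, were at 0.37 and 0.76, and the poly(A) polymerase Mtpap was at 0.033. Elac2 and Trmt10c, which act in cutting out transfer RNAs, were at 0.36 and 0.34. Tfb1m and Nsun4, which modify the 12S ribosomal RNA, were at 0.33 and 0.15. The coactivators Ppargc1a and Ppargc1b were at 0.28 and 0.47. Of these 13 factors the smallest limma-voom adjusted p was 0.612, that of Slirp, and with library blocks the fold changes of Tefm, Lrpprc, Mtpap and Tfb1m changed sign.

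Set against its nuclear partners, the mitochondrial messenger pool was the larger by far. Its counts were 45.1-fold those of the 70 nuclear subunits in the median sample. The log2 ratio lay between 4.63 and 6.66 in sham and between 4.60 and 5.76 in pMCAO samples, with means of 5.73 ± 0.83 (SD, n = 7) and 5.26 ± 0.45 (SD, n = 5). The difference of -0.47 had an interval from -1.38 to 0.44 (exact permutation p = 0.274, adjusted p = 0.366), and within the blocks it was -0.66, -0.80 and 0.65. Without pMCAO sample 2 it was -0.30, and without the 4 libraries of the first block it was -0.075. The ratio was 6.25 ± 0.38 (SD, n = 4) in the first library block and 5.17 ± 0.53 (SD, n = 8) in the later libraries.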

How the data were processed

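Live EpCAM+ cells were sorted from the small intestine, and total RNA was depleted of ribosomal RNA by cleavage and sequenced as paired-end 100-base reads. According to the labels and methods, the authors aligned reads to GRCm38 with STAR, counted them per gene with featureCounts and ran limma-voom after a correction for collection day. The deposited count columns hold whole-number counts per gene, not normalised, and were used for every value here. The deposited CPM columns equalled counts scaled to a column total of 1000000 in 190260 of 190260 values (tolerance of rounding). The authors' columns of log2 fold changes, average log2 expression, p-values and false discovery rates entered no fit or test directly. Their fold changes had guided the choice of the library blocks in earlier work. Results with library blocks are therefore not independent of the authors' comparison. Whether multi-matching reads or strand were used in counting is not given in the sources used here.

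Members and gene lists were chosen with earlier results of these data known. The blocks of library numbers came from earlier work on these data, where they were chosen to match the authors' deposited fold changes, and collection day is not in the labels. Shares and log2 ratios of summed counts were compared by exact two-sided permutation over 792 splits (smallest p 0.00126), or over the 72 splits within blocks (smallest p 0.0139). Intervals of differences come from inverting that test at 95%. The fit across genes was limma-voom (R 4.3.3 with limma 3.58.1 and edgeR 4.0.16) on TMM-scaled counts after filterByExpr (minimum count 10), with the group alone, at the study's thresholds. CPM of single genes are TMM-scaled. DESeq2 (1.42.0), edgeR's quasi-likelihood test, other scalings, blocks and left-out samples were alternatives. The named genes were all members (transfer RNAs summarised, the most counted named), 13 nuclear factors, the 5 list genes with the smallest p, and nuclear copies. Relations across samples used 100000 permutations, or all orders for 8 samples. The steps were tested on simulated data. Transcripts (GENCODE M21) were searched with blastn 2.17.0, copies were listed from 95% identity, and sequences are those of that release. A floor of 3 counts was 0.094 to 0.404 CPM. None of the pairs of samples within a group, all of which were compared, agreed within sampling noise (chi-square per degree of freedom at least 17.7). P-values judge a difference or relation against the spread between these samples. A further leukocyte marker considered is not reported here.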

Additional observations from a re-analysis of the deposited data

Results flagged for a closer look

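Among the values per gene and group examined for a sample far from the rest of its group, 2 of 94 stood out, and chance gives about 4.7. The log2 CPM of mt-Tl1 was 4.71 in pMCAO sample 2 against 6.53 ± 0.13 (SD, n = 4) over the rest of its group. That of Tfam was -3.30 in sham sample 2, where its count was 0, against 2.72 ± 0.93 (SD, n = 6) over the rest of that group.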

How the results depend on the processing

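Counts were few for the 5 low messengers (11 to 418 in a sample) and 15 of the transfer RNAs (2 to 798), yet the SE of mt-Co3 (0.35) was below that of mt-Rnr2 (0.54), and the part of depth in these errors was not tested. The alternatives changed no call on a member, since 0 of the 32 were called under any of them. The replicate numbers 1 to 5 are shared by both groups, but the correlations of same-numbered samples were 0.37, -0.22, -0.14, 0.14 and 0.069, so the numbers did not pair the samples. A block by replicate number could be fitted only on replicates 1 to 5, without sham samples 6 and 7. The part of that omission in the values below was not tested. The fit with this block called 259 genes and 0 members. In it, 11 of 32 members (34.4%) had an unadjusted p under 0.05, against 17.6% of the 13644 genes tested, and all 11 were lower in pMCAO samples, as were 9.48% of all genes. They were mt-Rnr1 (-1.22), mt-Rnr2 (-1.37), mt-Nd3, mt-Nd4l and 7 transfer RNAs, with limma-voom adjusted p of at least 0.0991. In the same fit Ndufa6 was at 0.98 with a limma-voom adjusted p of 0.0329. The replicate block also moved the log2 messenger to nuclear subunit ratio to -0.91 and the transfer RNA to messenger ratio to -0.42. With this block, the difference was -16.1 percentage points for the ribosomal RNA share and 1.05 for the log2 messenger to ribosomal ratio. It was 0.17 for mt-Nd6 to the other messengers. All of these reached 0.0625 by exact permutation, and 5 pairs allow no lower p. The total mitochondrial share moved to -13.8 percentage points (exact permutation p = 0.125). For the remaining shares and ratios, the exact permutation p ran from 0.125 to 0.8125.

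The count of genes called was 0 in the design used and 68 with DESeq2, 3 with total counts, 47 with library blocks, 21 with library blocks in edgeR (added after the data were seen) and 0 to 17 with each sample left out in turn (5 without sham sample 7, 8 without pMCAO sample 1, 17 without pMCAO sample 3). Leaving out each sample in turn, the difference was -11.9 to -5.03 percentage points for the total mitochondrial share, -0.41 to -0.14 for the log2 transfer RNA to messenger ratio, -0.65 to -0.30 for the log2 messenger to nuclear subunit ratio, -14.6 to -7.93 percentage points for the ribosomal RNA share, 0.64 to 1.05 for the log2 messenger to ribosomal ratio, -0.12 to -0.057 for mt-Rnr2 to mt-Rnr1, 0.088 to 0.20 for mt-Nd6 to the other messengers, -0.00154 to 0.00438 percentage points for transfer RNA and -0.205 to 2.78 percentage points for messengers outside ribosomal RNA. The transfer RNA share difference was -0.00319 with the replicate block and -0.00043 without library block 1, and the messenger share outside ribosomal RNA was -0.443 with the replicate block. The r of mitochondrial messengers with 18S turned to 0.12 without the 2 farthest samples and 0.0766 in the later libraries.

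Several log2 fold changes changed sign, none of them past the threshold in the design used. With the replicate block these were mt-Nd1 (-0.11), mt-Nd4 (-0.23), mt-Nd5 (-0.071), mt-Nd6 (-0.094), mt-Cytb (-0.22) and Tefm (0.049). With total counts they were mt-Nd2 (0.27), mt-Co1 (0.20), mt-Co3 (0.25), mt-Nd3 (0.12), mt-Tp (0.047), mt-Tl1 (0.060) and Tefm (0.074). With edgeR they were mt-Nd2 (0.0015) and mt-Co3 (0.035), and with DESeq2 mt-Co3 (0.023). With library blocks they were mt-Nd2 (0.026), mt-Co3 (0.11), Tefm (0.40), Lrpprc (-0.11), Mtpap (-0.11) and Tfb1m (-0.41). Without library block 1 they were mt-Nd2 (0.032), mt-Co3 (0.11), Tfam (-0.15), Tefm (0.17), Lrpprc (-0.18), Mtpap (-0.076) and Tfb1m (-0.86). With library blocks in edgeR they were mt-Nd2 (0.034), mt-Co3 (0.0064), Tefm (0.41), Lrpprc (-0.035), Mtpap (-0.094), Ppargc1a (-0.064) and Ppargc1b (-0.30). With each sample left out they ran from -0.22 to 0.20 for mt-Nd2, -0.23 to 0.046 for mt-Co1, -0.11 to 0.51 for mt-Atp6, -0.19 to 0.30 for mt-Co3, -0.83 to 0.093 for mt-Nd4l, -0.082 to 0.26 for mt-Nd4, -0.061 to 0.24 for mt-Cytb, -0.44 to 0.13 for mt-Tl1, -0.037 to 0.50 for Tfam, -0.15 to 0.50 for Tfb2m, -0.41 to 0.24 for Tefm, -0.068 to 0.54 for Lrpprc, -0.16 to 0.15 for Mtpap, -0.16 to 1.22 for Tfb1m, -0.054 to 0.43 for Nsun4 and -0.028 to 0.60 for Ppargc1a. The cause of these changes was not tested.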

Other observations

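A second set of nuclear copies lies on chromosome 2. Gm13340 matches mt-Co1 over 1545 bases at 97.6% identity and held 88 to 738 counts per sample, or 4180 in all. Gm13341 matches mt-Co2 over 684 aligned bases at 95.9% identity and held 4269 counts in all, more than the 1857 of mt-Co2 itself. Gm13339 matches mt-Nd2 over 510 bases at 96.7% identity and held 148 counts.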
